A study of Canis lupus familiaris with 29 samples.

Results

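FOS, EGR1 and IER3 are immediate early genes, which means that cells transcribe them soon after a growth factor arrives and without first having to make new protein. The 3 genes were chosen by name, as every probe set whose platform annotation gives FOS, EGR1 or IER3 as its only symbol, out of 15115 genes with such a probe set. They are represented by 6 probe sets, which are groups of short oligonucleotides that together measure 1 transcript, and 5 of the 6 were bright enough to be tested. The files' gene identifiers are 490792 for FOS, 481528 for EGR1 and 481708 for IER3.

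The cells were MDCK type II, an epithelial line from dog kidney that forms polarised sheets on filters and hollow cysts in gels. They were grown in collagen (3D) or on transwell filters (2D), and in each culture received hepatocyte growth factor (HGF) with U0126, HGF with PD-98059, HGF alone or no HGF and no inhibitor (control). In 3D there were 3, 3, 4 and 4 arrays of these groups, and in 2D 3, 4, 4 and 4 arrays, 29 in all. HGF is the ligand of the receptor tyrosine kinase MET, and U0126 and PD-98059 are small molecules that keep the kinase MEK from activating ERK. All samples came from the same cell line, the labels give no dose and no time of treatment, and no group received an inhibitor without HGF. Nothing in the labels says that replicates came from separate cultures, so the p-values reflect variation among these arrays alone, and that variation may be technical.

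As background, ERK is the last kinase of a chain that runs from MET through RAS, RAF and MEK. Active ERK and the RSK kinases phosphorylate transcription factors already bound to the promoters of immediate early genes, such as the ternary complex factors that sit beside SRF, and their transcripts are short-lived. FOS joins JUN proteins in the transcription factor AP-1, EGR1 is a zinc-finger transcription factor whose corepressors include NAB1 and NAB2, and IER3 is a small protein known for effects on cell survival and on ERK signalling.

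All values are log2 levels, and a difference of 1 is 2-fold. For each gene the probe set with the higher mean level is called its main probe set: Cfa.9039.1.A1_at for FOS, CfaAffx.2782.1.S1_s_at for EGR1 and Cfa.16863.1.S1_at for IER3. Levels of different probe sets cannot be set against each other, so genes are compared only through their differences between groups. Differences are given with the standard error of the limma fit, and a probe set passed a comparison at a Benjamini-Hochberg adjusted p under 0.05 over 16571 probe sets.

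The 4 arrays of 3D cells with HGF were less alike than those of the other groups, with a lowest pairwise correlation of 0.964 over the tested probe sets, against 0.987 or more elsewhere. Replicates 1 and 4 deviated most from their group mean, by 0.311 and 0.268 on average, against 0.112 to 0.178 for the 25 arrays outside that group. An index of RNA quality, the mean excess of 3′ over 5′ or middle signal at control probe sets, averaged 0.838 ± 0.0476 in 2D cells with HGF and 1.44 ± 0.1 in 2D control cells (SD, n = 4 each; exact two-sided permutation test, p = 0.0286, the smallest that 4 against 4 arrays allow, adjusted p = 0.05 over 7 comparisons). Of 9 kidney epithelium markers 7 were over log2 5 on every array, while CDH1 and PAX8 were below it on every array. Whether such a dim probe set reflects little transcript was not tested. All 6 fibroblast and all 4 endothelial markers were below log2 5 on every array, as were 3 of 4 leukocyte markers, with CD68 at 2.70 to 6.79. Fewer cells with a transcript and less transcript per cell cannot be told apart in these bulk samples.

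FOS was brightest in 2D cells with HGF and dimmest in 3D cells with HGF and U0126. In 3D the main FOS probe set read 11.91, 11.91 and 12.23 with HGF and U0126, 12.89, 13.03 and 13.30 with HGF and PD-98059, 13.90, 14.10, 14.06 and 13.78 with HGF, and 13.52, 13.54, 13.64 and 13.57 in control cells. In 2D it read 12.46, 12.36 and 12.39 with HGF and U0126, 12.99, 12.86, 12.86 and 13.18 with HGF and PD-98059, 14.89, 14.70, 14.86 and 14.81 with HGF, and 14.22, 14.03, 13.86 and 14.06 in control cells. Within each culture the 4 groups did not overlap and stood in the same order. Over both cultures the 13 arrays with an inhibitor lay between 11.91 and 13.30, below all 16 arrays without one, which lay between 13.52 and 14.89.

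EGR1 had a different order, with its highest mean in control cells in both cultures. In 3D its main probe set read 4.39, 4.34 and 4.38 with HGF and U0126, 4.41, 4.20 and 4.41 with HGF and PD-98059, 7.18, 5.23, 5.71 and 5.22 with HGF, and 6.28, 6.12, 6.50 and 5.85 in control cells. In 2D it read 4.36, 4.39 and 4.42 with HGF and U0126, 4.40, 4.41, 4.55 and 4.27 with HGF and PD-98059, 6.83, 7.38, 6.81 and 7.43 with HGF, and 8.82, 8.86, 8.49 and 9.17 in control cells. Replicate 1 of the 3D cells with HGF, at 7.18, was above all 3D control arrays, while the other 3 were below all of them. The 13 arrays with an inhibitor lay in a narrow band between 4.20 and 4.55, all under the log2 5 that was used as the minimum for a bright value. The 16 arrays without an inhibitor lay between 5.22 and 9.17. Whether the band lies above background was not tested, since no detection calls were used here. The probe set was bright enough to test only through those 16 arrays.

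IER3 was bright with HGF in both cultures, and its control level differed between them. In 3D its main probe set read 9.39, 9.05 and 9.56 with HGF and U0126, 9.20, 9.61 and 9.66 with HGF and PD-98059, 10.14, 9.95, 9.92 and 9.57 with HGF, and 8.84, 9.04, 8.83 and 8.77 in control cells. In 2D it read 8.16, 8.42 and 8.15 with HGF and U0126, 7.94, 7.70, 8.10 and 8.09 with HGF and PD-98059, 10.00, 9.26, 9.76 and 9.67 with HGF, and 7.05, 7.29, 7.69 and 7.78 in control cells. In 2D the HGF arrays stood apart from all others, and the PD-98059 arrays overlapped the control arrays. In 3D all arrays with an inhibitor were above all control arrays, and the PD-98059 arrays overlapped the HGF arrays.

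**Figure D1:**
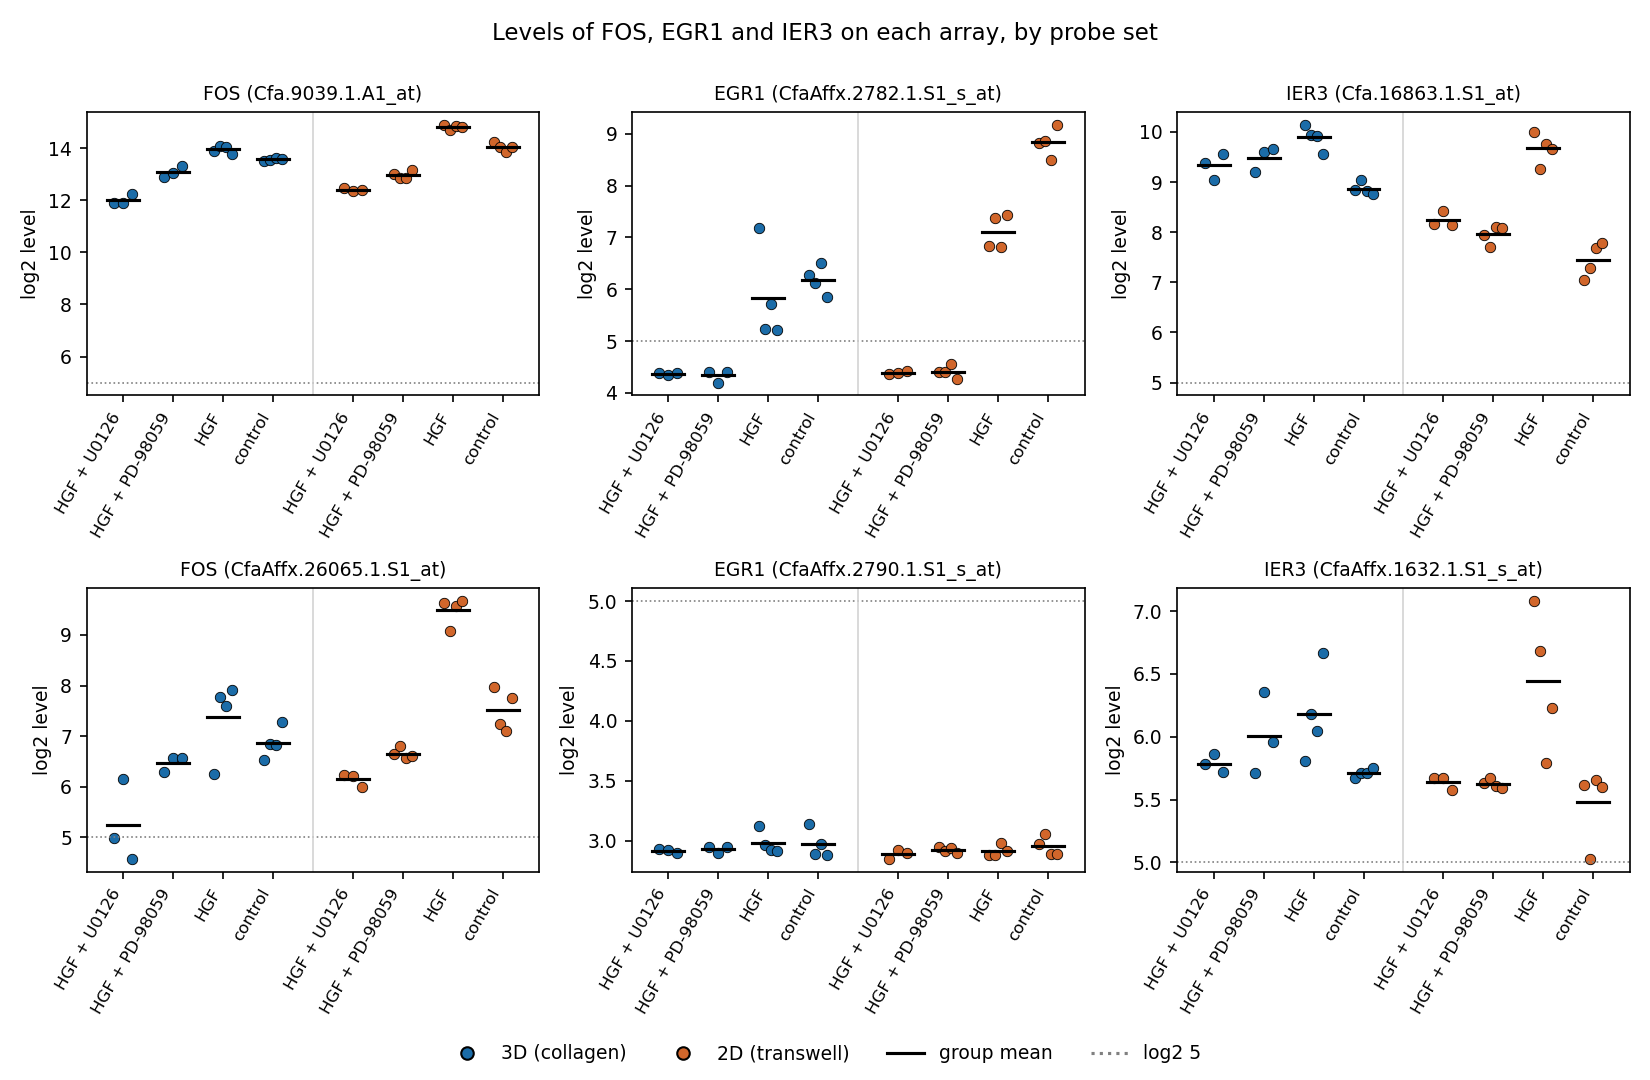
Log2 level of each of the 6 probe sets (1 panel each, with its own vertical axis) on every array, by group, with 3D arrays on the left and 2D arrays on the right of each panel. Points are arrays, black bars are group means and the dotted line is log2 5; the main FOS and EGR1 probe sets (top row) are lowest on the 13 arrays with an inhibitor, and the group means of the main IER3 probe set with an inhibitor lie between those of HGF and control.

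The first question is what HGF alone did to the genes. At the main probe sets HGF raised FOS and IER3 in both cultures and lowered EGR1 in 2D. In 3D, 3 of the 5 tested probe sets passed as higher and 0 as lower, where 29.4% of all tested probe sets were higher and 32.6% lower. In 2D, 4 passed as higher and 1 as lower, where 26.3% of all were higher and 29.2% lower. With shares this large over the array, the counts alone do not set these genes apart.

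FOS averaged 13.96 with HGF and 13.57 in control cells in 3D, a difference of 0.39 ± 0.09 or 1.31-fold (limma adjusted p = 0.000837), and 14.82 with HGF and 14.04 in control cells in 2D, a difference of 0.78 ± 0.09 or 1.71-fold (limma adjusted p = 1.06e-07). All 4 HGF arrays were above all 4 control arrays in each culture. IER3 averaged 9.90 with HGF and 8.87 in control cells in 3D, a difference of 1.03 ± 0.17 or 2.04-fold (limma adjusted p = 6.76e-06), and 9.67 with HGF and 7.45 in control cells in 2D, a difference of 2.22 ± 0.17 or 4.67-fold (limma adjusted p = 1.44e-11). Here too the arrays of the groups did not overlap. Without replicates 1 and 4 of the 3D cells with HGF, the 3D differences were 0.51 for FOS and 1.07 for IER3, and both passed. The other FOS probe set gave 1.42-fold in 3D, which did not pass, and 3.9-fold in 2D, so the size of the FOS change depends on the probe set.

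EGR1 went the other way. In 2D it averaged 7.11 with HGF and 8.83 in control cells, a difference of -1.72 ± 0.27 or 3.3-fold (limma adjusted p = 5.69e-06), with all HGF arrays below all control arrays. With the RNA-quality index as a covariate this difference was -0.99 (limma adjusted p = 0.000877), while those of FOS and IER3 in 2D were 0.80 and 2.44. The index varied most within the 3D cells with HGF (SD 0.583, against 0.0246 to 0.238 in the other groups). The covariate therefore leans on those 4 arrays. In 2D the index was 0.798 to 0.902 in cells with HGF alone and 1.3 to 1.53 in control cells, without overlap. With HGF and PD-98059 it was 1.28 to 1.41, and with HGF and U0126 1.23 to 1.47. Values with the covariate, here and below, cannot separate RNA quality from treatment. In 3D the EGR1 SD was 0.927 with HGF and 0.272 in control cells, while its interval uses the spread of all 8 groups. There EGR1 averaged 5.84 with HGF and 6.19 in control cells, and the difference of -0.35 ± 0.27 (95% interval -0.91 to 0.20) did not pass (limma adjusted p = 0.266). That result rested on 1 array, since without replicate 1 of the 3D cells with HGF the difference was -0.80 and passed (limma adjusted p = 0.000263), and over all 8 ways of leaving out 1 array of the 2 groups it ran from -0.80 to -0.15. With the RNA-quality index as a covariate it was -0.04.

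The difference between cultures was tested in the same fit. The HGF effect was smaller in 3D than in 2D for FOS, by -0.39 ± 0.13 (limma adjusted p = 0.0193), and for IER3, by -1.20 ± 0.24 (limma adjusted p = 0.00016). For EGR1 the HGF effect in 3D minus that in 2D was 1.37 ± 0.38 (limma adjusted p = 0.00464), that is, less of a fall in 3D. In all, 4 of the 5 tested probe sets passed this comparison, 1 as higher and 3 as lower, where 48.3% of all tested probe sets passed. The FOS value did not pass without replicates 1 and 4 of the 3D cells with HGF, at -0.27 (limma adjusted p = 0.129), or without replicate 3 of the 2D control cells, at -0.32 (limma adjusted p = 0.0516).

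**Figure D2:**
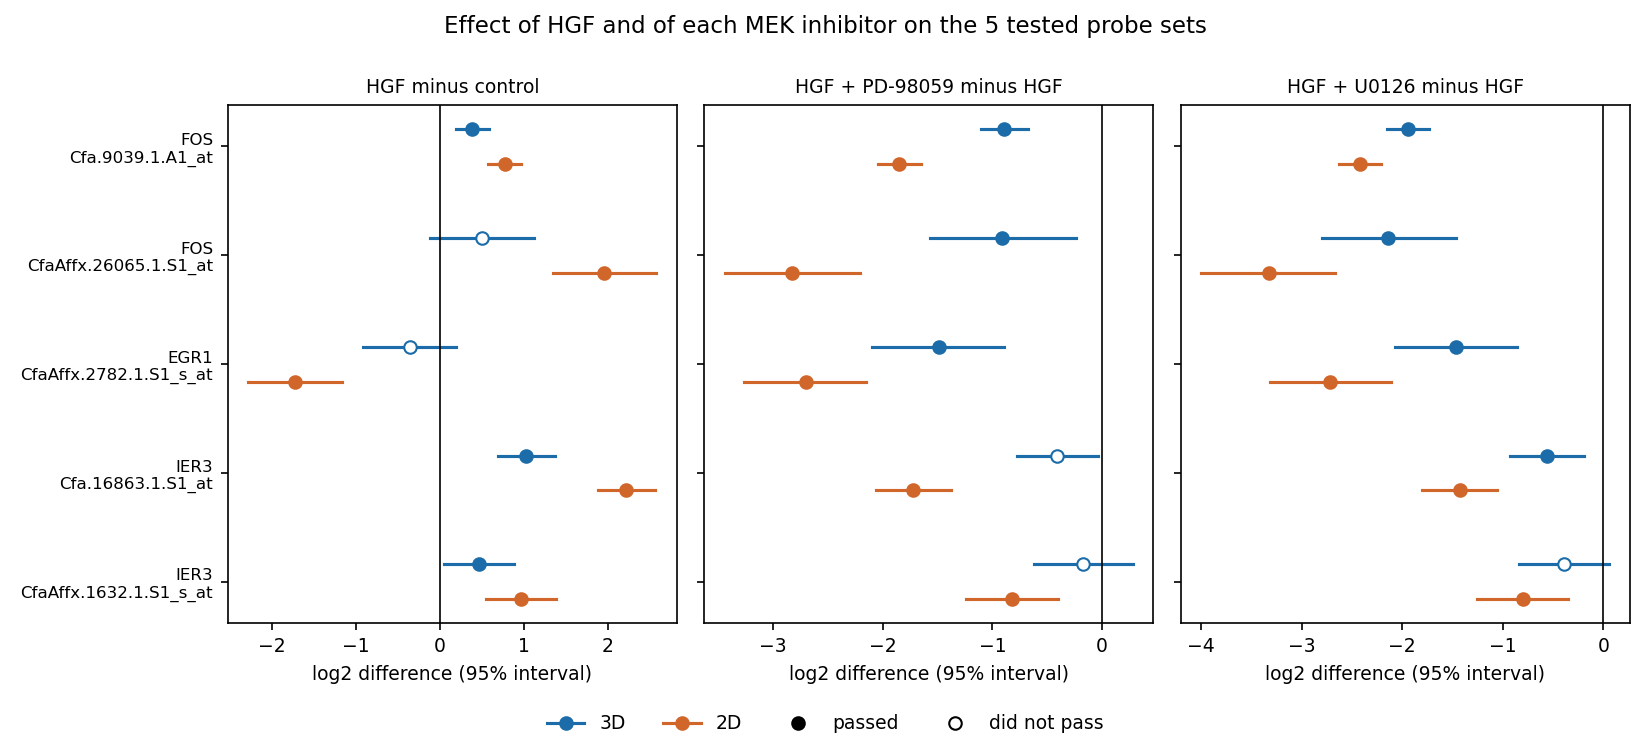
Log2 differences of the 5 tested probe sets for HGF minus control, HGF with PD-98059 minus HGF and HGF with U0126 minus HGF, in 3D (blue) and 2D (orange). Points are limma estimates, lines are 95% intervals and filled points passed; in 2D all 5 probe sets passed in each panel, and EGR1 is the only gene left of 0 for HGF.

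The second question is what happened to the genes when MEK was inhibited in cells that received HGF. With either inhibitor, FOS and EGR1 were lower than with HGF alone in both cultures, and IER3 was lower in 2D. In 3D, 0 of the 5 tested probe sets were higher and 3 lower with PD-98059, where 26.6% of all tested probe sets were higher and 15.4% lower. With U0126 in 3D, 0 were higher and 4 lower, where 25.4% of all were higher and 23.8% lower. In 2D all 5 were lower with either inhibitor, where 27.6% of all were higher and 24.9% lower with PD-98059, and 25.8% higher and 24.3% lower with U0126. The counts of lower probe sets include EGR1, whose calls here are not independent of the filter, as set out below. These comparisons share the arrays of cells with HGF with each other and with the comparison of HGF and control.

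FOS in 3D averaged 13.07 with HGF and PD-98059 and 13.96 with HGF, a difference of -0.89 ± 0.10 or 1.85-fold (limma adjusted p = 8.63e-08). With U0126 it averaged 12.02, and the difference from HGF was -1.94 ± 0.10 or 3.85-fold (limma adjusted p = 2.43e-14). In 2D, FOS averaged 12.97 with HGF and PD-98059, 12.40 with HGF and U0126 and 14.82 with HGF, so that the differences were -1.85 ± 0.09 and -2.42 ± 0.10, or 3.59-fold and 5.34-fold. None of the inhibitor arrays overlapped those with HGF alone. The other FOS probe set gave larger folds in 2D, 7.1-fold with PD-98059 and 10.1-fold with U0126.

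EGR1 in 3D averaged 4.34 with HGF and PD-98059, 4.37 with HGF and U0126 and 5.84 with HGF. The differences were -1.49 ± 0.29 with PD-98059 (limma adjusted p = 0.000167) and -1.47 ± 0.29 with U0126 (limma adjusted p = 0.000159), and they were -1.13 and -1.10 without replicates 1 and 4 of the 3D cells with HGF. In 2D the means were 4.41 with PD-98059, 4.39 with U0126 and 7.11 with HGF, with differences of -2.70 ± 0.27 and -2.72 ± 0.29. All 4 inhibitor groups were under log2 5 at about the same level, so the size of each difference follows the level with HGF alone and is not read as a fold. The probe set was bright enough to test only through arrays without an inhibitor. Its calls with an inhibitor, here and against control, are therefore not independent of the filter.

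IER3 fell in 2D, where it averaged 7.96 with HGF and PD-98059, 8.24 with HGF and U0126 and 9.67 with HGF. The differences were -1.72 ± 0.17 for PD-98059 (3.29-fold, limma adjusted p = 2.02e-09) and -1.43 ± 0.18 for U0126 (2.7-fold, limma adjusted p = 2.13e-07). In 3D the means were 9.49 with PD-98059, 9.34 with U0126 and 9.90 with HGF. The U0126 difference of -0.56 ± 0.18 passed (limma adjusted p = 0.0111), and did not without replicate 2 of that group, at -0.42 (limma adjusted p = 0.0926). The PD-98059 difference of -0.41 ± 0.18 (95% interval -0.78 to -0.04) did not pass (limma adjusted p = 0.0711). After centring each array on its median, which moved the median of all tested probe sets by -0.13 in this comparison, it was -0.54 and passed (limma adjusted p = 0.0165), and without replicate 4 of the 3D cells with HGF it was -0.52 and passed (limma adjusted p = 0.028).

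In 2D the RNA-quality index also differed, at 1.36 with HGF and PD-98059, 1.31 with HGF and U0126 and 0.838 with HGF. With it as a covariate the 2D differences with PD-98059 were -1.86 for FOS, -3.34 for EGR1 and -1.90 for IER3, and those with U0126 were -2.43, -3.30 and -1.60, and all 6 passed.

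Measured from HGF alone, both inhibitor effects were smaller in 3D than in 2D at the main probe sets of FOS and IER3. For FOS the level with HGF alone was itself lower in 3D, by -0.86 ± 0.09. With PD-98059 FOS averaged 13.07 in 3D and 12.97 in 2D, which did not pass. With U0126 it was lower in 3D, at 12.02 against 12.40 in 2D. IER3 differed by 0.22 with HGF alone, which did not pass, and was higher in 3D with either inhibitor. The PD-98059 effect in 3D minus that in 2D was 0.96 ± 0.14 for FOS, 1.21 ± 0.40 for EGR1 and 1.31 ± 0.24 for IER3, with limma adjusted p of 5.66e-06, 0.0202 and 0.000142. For U0126 it was 0.47 ± 0.14 for FOS, 1.25 ± 0.41 for EGR1 and 0.87 ± 0.25 for IER3, with limma adjusted p of 0.0121, 0.0196 and 0.00872. In each of these 2 comparisons 4 of the 5 tested probe sets passed, all 4 as higher, where 34.2% of all tested probe sets passed for PD-98059 and 36.5% for U0126. The EGR1 values do not measure a smaller effect, since all inhibitor groups were at 4.34 to 4.41 and the values repeat the difference of -1.27 between 3D and 2D cells with HGF alone. They did not pass with a fit of the compared groups alone (limma adjusted p = 0.0795 for PD-98059 and 0.091 for U0126), and the FOS difference for U0126 did not pass without replicates 1 and 4 of the 3D cells with HGF, at 0.35 (limma adjusted p = 0.0714), or without replicate 3 of the 3D cells with HGF and U0126, at 0.37 (limma adjusted p = 0.054). With the RNA-quality index as a covariate the EGR1 values were 1.88 for PD-98059 and 1.92 for U0126.

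The third question is whether cells with HGF and an inhibitor were at the level of untreated cells. At the main probe sets they were not, and the genes split. FOS and EGR1 were below control in both cultures with either inhibitor, and IER3 was above it. The other IER3 probe set passed none of these comparisons. It differed by 0.30 in 3D and 0.15 in 2D with PD-98059, and by 0.08 and 0.16 with U0126. The other FOS probe set was also lower, but did not pass with PD-98059 in 3D, at -0.40 ± 0.32 (limma adjusted p = 0.361). For PD-98059 against control, 3 of the 5 tested probe sets passed in 3D and 4 in 2D, where 38.8% and 25.6% of all tested probe sets passed. For U0126 against control, 4 passed in each culture, where 33.8% passed in 3D and 17.0% in 2D. EGR1 is in each of these counts, and its calls are not independent of the filter.

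FOS was lower than in control cells by -0.50 ± 0.10 in 3D and -1.07 ± 0.09 in 2D with HGF and PD-98059. With HGF and U0126 the FOS differences from control were -1.55 ± 0.10 in 3D and -1.64 ± 0.10 in 2D. EGR1 showed the widest gap of the 3 main probe sets in 2D, with a mean of 4.41 with HGF and PD-98059, 4.39 with HGF and U0126 and 8.83 in control cells. The EGR1 differences from 2D control were -4.43 ± 0.27 and -4.44 ± 0.29 in the deposited values, with no fold given since both inhibitor groups were under log2 5. In 3D they were -1.85 ± 0.29 with PD-98059 and -1.82 ± 0.29 with U0126. All these FOS and EGR1 differences passed, the highest limma adjusted p being 0.000352, with no overlap between arrays.

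IER3 was above control by 0.62 ± 0.18 with HGF and PD-98059 in 3D (limma adjusted p = 0.00731) and by 0.79 ± 0.18 with HGF and U0126 in 2D (limma adjusted p = 0.0024). The other 2 IER3 differences passed narrowly, at 0.51 ± 0.17 with PD-98059 in 2D (limma adjusted p = 0.0255) and 0.47 ± 0.18 with U0126 in 3D (limma adjusted p = 0.0461). These 2 calls depended on the settings, since neither passed when probe sets of low level were kept in the adjustment (limma adjusted p = 0.0678 and 0.116) or when the IER3 probe sets were averaged (0.0798 and 0.161). The PD-98059 call in 2D was also lost without replicate 1 (0.37) or 2 (0.45) of the control cells, or without replicate 3 (0.46) or 4 (0.46) of the cells with PD-98059. The U0126 call in 3D was lost without replicate 1 (0.46), 3 (0.46) or 4 (0.43) of the control cells, or without replicate 1 (0.44) or 3 (0.35) of the cells with U0126.

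**Figure D3:**
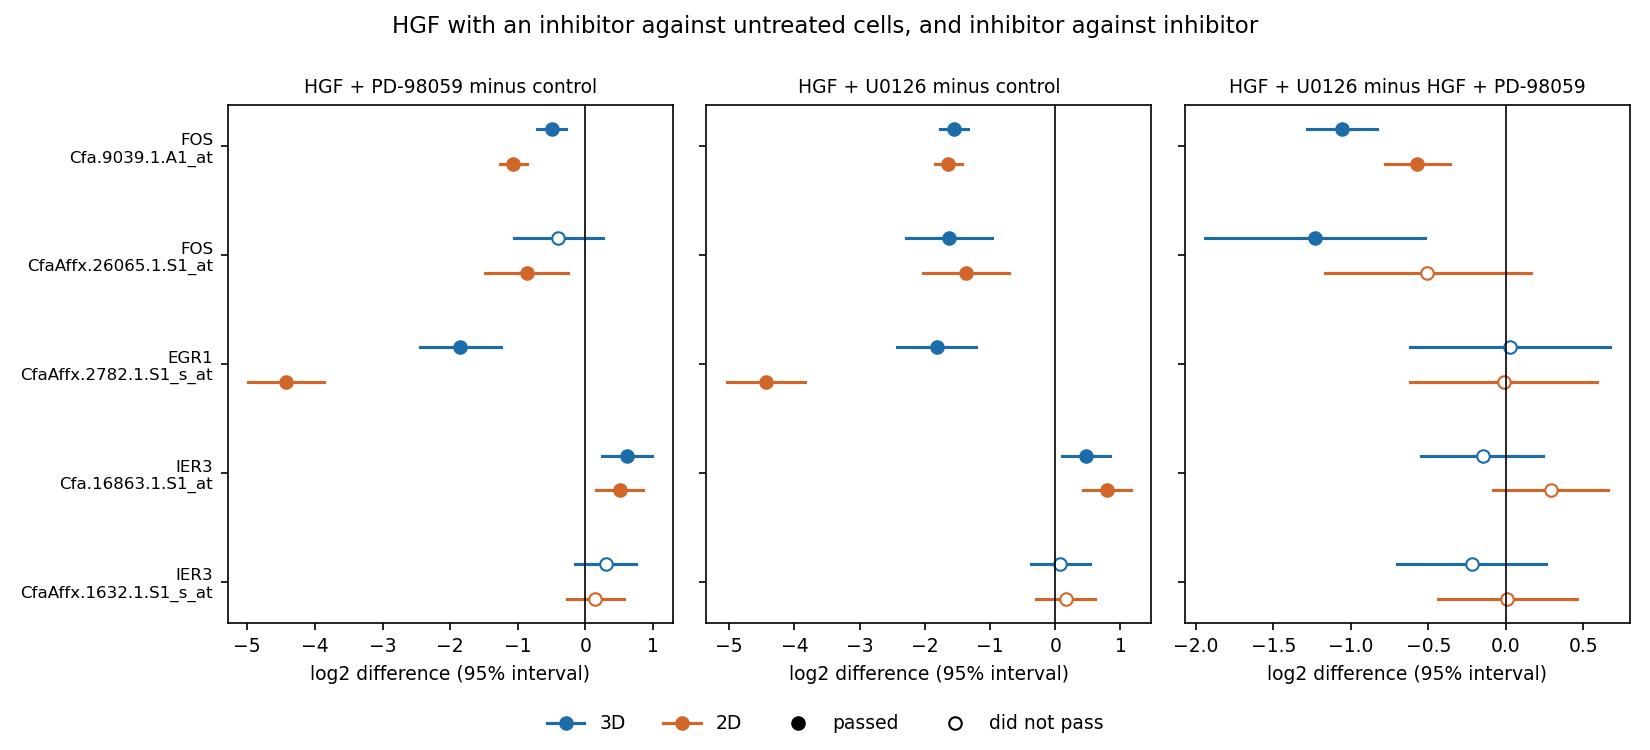
Log2 differences of the 5 tested probe sets for HGF with PD-98059 minus control, HGF with U0126 minus control and HGF with U0126 minus HGF with PD-98059, in 3D (blue) and 2D (orange). Points are limma estimates, lines are 95% intervals and filled points passed; FOS and EGR1 lie left of 0 against control, the main IER3 probe set lies right of it, and only FOS probe sets passed between the inhibitors.

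U0126 and PD-98059, which have unrelated chemical structures, were set against each other in cells with HGF. Their doses are not given, so a difference between these groups is one between the treatments as applied. Of the 5 tested probe sets 2 passed in 3D, where 11.8% of all passed, and 1 in 2D, where 1.62% of all passed. The probe sets that passed were all of FOS. FOS averaged 12.02 with U0126 and 13.07 with PD-98059 in 3D, a difference of -1.06 ± 0.11 or 2.08-fold (limma adjusted p = 3.39e-07), and 12.40 with U0126 and 12.97 with PD-98059 in 2D, a difference of -0.57 ± 0.10 or 1.48-fold (limma adjusted p = 0.00196). No array with U0126 reached the lowest array with PD-98059 in either culture. The 2D call was lost in a fit of the compared groups alone (limma adjusted p = 0.0693), with the difference unchanged.

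For EGR1 and IER3 no difference between the inhibitors passed. The EGR1 difference, U0126 minus PD-98059, was 0.03 in 3D with a 95% interval of -0.62 to 0.67, and -0.01 in 2D with an interval of -0.62 to 0.59. At the low level of all these EGR1 arrays a difference might not register, which was not tested. For IER3 it was -0.15 in 3D with an interval of -0.55 to 0.24, and 0.29 in 2D with an interval of -0.08 to 0.66. The IER3 arrays overlapped in 3D, while in 2D all U0126 arrays were above all PD-98059 arrays.

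The fourth question is how culture in collagen differed from culture on filters at the same treatment. At the main probe sets untreated 3D cells had less FOS and EGR1 and more IER3 than untreated 2D cells. The differences were -0.47 ± 0.09 for FOS (limma adjusted p = 0.000164), -2.64 ± 0.27 or 6.24-fold for EGR1 (limma adjusted p = 1.01e-08) and 1.42 ± 0.17 or 2.67-fold for IER3 (limma adjusted p = 9.25e-08), with no overlap between arrays. In this comparison 3 of the 5 tested probe sets passed, where 52.3% of all tested probe sets did. The RNA-quality index also differed here, at 1.93 ± 0.238 in 3D control cells and 1.44 ± 0.1 in 2D control cells (SD, n = 4 each), and with it as a covariate the differences were -0.49 for FOS, -3.24 for EGR1 and 1.24 for IER3, all of which passed. The other FOS probe set did not pass here, at -0.65 ± 0.30 (limma adjusted p = 0.0707) and at 0.03 with the covariate, nor did the other IER3 probe set, at 0.23 ± 0.20 (limma adjusted p = 0.36) and at 0.45 with the covariate.

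With HGF, FOS and EGR1 were again lower in 3D, by -0.86 ± 0.09 and -1.27 ± 0.27 (limma adjusted p = 1.44e-08 and 0.000208), although the EGR1 arrays overlapped through replicate 1 of the 3D cells. With the RNA-quality index as a covariate the EGR1 difference was -2.29. IER3, at 9.90 in 3D and 9.67 in 2D, differed by 0.22 ± 0.17 with a 95% interval of -0.12 to 0.56 and did not pass (limma adjusted p = 0.249). Thus 3 of 5 probe sets passed with HGF, where 64.6% of all did.

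With an inhibitor the picture narrowed to IER3 and, for U0126, FOS. IER3 was higher in 3D by 1.53 ± 0.18 with PD-98059 (limma adjusted p = 8.73e-08) and by 1.09 ± 0.19 with U0126 (limma adjusted p = 5.08e-05), with no overlap. FOS was lower in 3D by -0.39 ± 0.11 with U0126 (limma adjusted p = 0.00565), and with PD-98059 its difference of 0.10 had a 95% interval of -0.11 to 0.31. EGR1, under log2 5 in all these groups, differed by -0.06 with PD-98059 and -0.02 with U0126, with intervals of -0.67 to 0.54 and -0.67 to 0.62. Of the 5 tested probe sets 1 passed with PD-98059 and 3 with U0126, where 50.7% and 41.8% of all did.

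Ranked by group mean, the main FOS probe set was highest in 2D cells with HGF (14.82), followed by 2D control (14.04), 3D with HGF (13.96), 3D control (13.57), 3D with PD-98059 (13.07), 2D with PD-98059 (12.97), 2D with U0126 (12.40) and 3D with U0126 (12.02). Of the 7 pairs of neighbours in that order 5 had arrays that did not overlap. The exceptions were 2D control beside 3D with HGF, and the PD-98059 groups of both cultures. For EGR1 the order was 2D control (8.83), 2D with HGF (7.11), 3D control (6.19) and 3D with HGF (5.84), and then the 4 inhibitor groups at 4.34 to 4.41, which all overlapped their neighbours. For IER3 it was 3D with HGF (9.90), 2D with HGF (9.67), 3D with PD-98059 (9.49), 3D with U0126 (9.34), 3D control (8.87), 2D with U0126 (8.24), 2D with PD-98059 (7.96) and 2D control (7.45). The first 4 of these overlapped their neighbours, as did the last 2.

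The other probe set of each gene gave a second reading of it on the same arrays. For FOS, CfaAffx.26065.1.S1_at followed the main probe set, with a Pearson correlation of 0.953 over the 8 group means, which share their arrays. It ran from 4.99, 6.16 and 4.58 in 3D cells with HGF and U0126 up to 9.63, 9.07, 9.57 and 9.67 in 2D cells with HGF. Its HGF differences were 0.51 ± 0.30 in 3D (limma adjusted p = 0.144) and 1.96 ± 0.30 in 2D (limma adjusted p = 3.33e-06), and the 3D value was 0.88 and passed without replicate 1 of the cells with HGF (limma adjusted p = 0.00399), which read 6.25 beside 7.78, 7.59 and 7.91 for the other 3. With the RNA-quality index as a covariate these HGF differences were 0.15 in 3D (limma adjusted p = 0.54) and 1.13 in 2D (limma adjusted p = 0.000377). Against HGF alone it was lower by -0.91 ± 0.32 with PD-98059 and -2.14 ± 0.32 with U0126 in 3D, and by -2.83 ± 0.30 and -3.33 ± 0.32 in 2D, all of which passed. The 3D difference with PD-98059 did not pass without replicate 2 (-0.77), 3 (-0.84) or 4 (-0.73) of the cells with HGF or without replicate 1 of the cells with PD-98059 (-0.82). U0126 minus PD-98059 was -1.23 ± 0.34 in 3D (limma adjusted p = 0.0203), a call that was lost with a fit of the compared groups alone (limma adjusted p = 0.0997), and -0.51 ± 0.32 in 2D (limma adjusted p = 0.649). It passed 14 of the 19 comparisons and the main FOS probe set 18 of them.

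The IER3 probe set CfaAffx.1632.1.S1_s_at spanned only 5.03 to 7.08 over the 29 arrays and correlated at 0.863 with the main one over the 8 group means. HGF raised it by 0.97 ± 0.20 in 2D (limma adjusted p = 0.000223) and by 0.47 ± 0.20 in 3D (limma adjusted p = 0.0461). In 2D it was lower with HGF and PD-98059 by -0.82 ± 0.20, and with HGF and U0126 by -0.80 ± 0.22, than with HGF alone. It passed these 4 of the 19 comparisons, and the main IER3 probe set passed 15. The 3D call with HGF was lost with the RNA-quality index as a covariate, at 0.36 (limma adjusted p = 0.123), and in 6 of the 8 fits that left out 1 array of the 2 groups, where the difference ran from 0.31 to 0.59. The EGR1 probe set CfaAffx.2790.1.S1_s_at read 2.85 to 3.14 on all arrays, control cells included, and was not tested. The main EGR1 probe set, which passed 14 of the 19 comparisons, is therefore the one reading of EGR1, and averaging the 2 EGR1 probe sets shrinks its differences by construction. The suffix _s_at marks probe sets whose probes can match more than 1 transcript.

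Over the 8 group means the main FOS and EGR1 probe sets correlated at 0.78, FOS and IER3 at 0.169 and EGR1 and IER3 at -0.257. These are descriptions over groups that share a cell line and treatments. The other IER3 probe set correlated at 0.527 with the main and at 0.603 with the other FOS probe set, so the value for FOS and IER3 depends on the probe set.

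A list of 38 other immediate early genes was set beside the 3 genes. Of these, 33 had a probe set that names 1 gene and 14 were bright enough to test. The relatives closest to the 3 genes were mostly dim: FOSB, FOSL1, FOSL2, JUNB, EGR2, EGR3, EGR4, ATF3 and NR4A1 stayed between 1.60 and 3.88 at their highest array. Whether their dim probe sets reflect little transcript was not tested. The 2 EGR1 probe sets reached 9.17 and 3.14 at their highest array. With HGF, 9 of the 14 were higher and 4 lower in 3D, where 29.4% of all tested probe sets were higher and 32.6% lower, with a median difference of 0.49 beside 0.00 over all. The count of lower genes was near that share. In 2D, 10 were higher and 2 lower, where 26.3% of all were higher and 29.2% lower, with a median of 0.99 beside -0.03. JUN, the partner of FOS in AP-1, was 1.53 ± 0.24 higher with HGF in 3D (limma adjusted p = 3.63e-06) and differed by 0.42 ± 0.24 in 2D (limma adjusted p = 0.133), whereas FOS passed in both. PTGS2, which encodes the inducible cyclooxygenase, was higher by 1.55 ± 0.23 in 3D and 5.76 ± 0.23 in 2D. KLF4, a zinc-finger transcription factor, was higher by 1.40 ± 0.15 in 3D and 2.94 ± 0.15 in 2D, and KLF6 of the same family by 1.11 ± 0.11 in 3D and 2.97 ± 0.11 in 2D.

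EGR1 was not alone in being lower with HGF. CCN2, a secreted matricellular protein, was lower by -1.38 ± 0.14 in 3D and -1.32 ± 0.14 in 2D, and the kinase gene SGK1 by -1.19 ± 0.17 in 3D and -1.21 ± 0.17 in 2D. Unlike EGR1, both were higher with the inhibitors than with HGF alone in 2D. With PD-98059 the difference was 0.51 ± 0.14 for CCN2 and 0.72 ± 0.17 for SGK1, and with U0126 it was 0.75 ± 0.15 and 0.73 ± 0.18, and all 4 passed. In 3D, CCN2 was lower with PD-98059, as EGR1 was, by -0.61 ± 0.15 (limma adjusted p = 0.00175). The CCN2 arrays overlapped in that comparison and those of EGR1 did not. With U0126 the CCN2 difference in 3D was 0.01 ± 0.15. SGK1 did not pass in 3D, at 0.19 ± 0.18 with PD-98059 and -0.01 ± 0.18 with U0126. CCN1, a relative of CCN2, was lower with HGF in 3D by -1.07 ± 0.19 and higher in 2D by 1.01 ± 0.19.

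With an inhibitor most of the 14 fell as FOS did. With PD-98059, 10 were lower and 0 higher in 3D and 12 were lower and 2 higher in 2D, with medians of -0.82 and -1.13 beside 0.05 and 0.03 over all tested probe sets, of which 15.4% were lower in 3D and 24.9% in 2D. The shares of all that were higher were 26.6% in 3D and 27.6% in 2D. With U0126, 10 were lower and 1 higher in 3D and 12 were lower and 2 higher in 2D, with medians of -1.0 and -1.42 beside 0.00 and 0.02 over all, of which 23.8% were lower in 3D and 24.3% in 2D. Here 25.4% of all were higher in 3D and 25.8% in 2D. JUN fell by 2.51 ± 0.25 with PD-98059 and fell by 1.51 ± 0.25 with U0126 in 3D on the log2 scale, where FOS had the larger difference with U0126. In 2D, KLF6 fell by 3.44 ± 0.11 with PD-98059 and fell by 3.48 ± 0.12 with U0126, and PLK2, a polo-like kinase gene, fell by 3.87 ± 0.16 with PD-98059 and fell by 3.01 ± 0.18 with U0126.

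**Figure D4:**
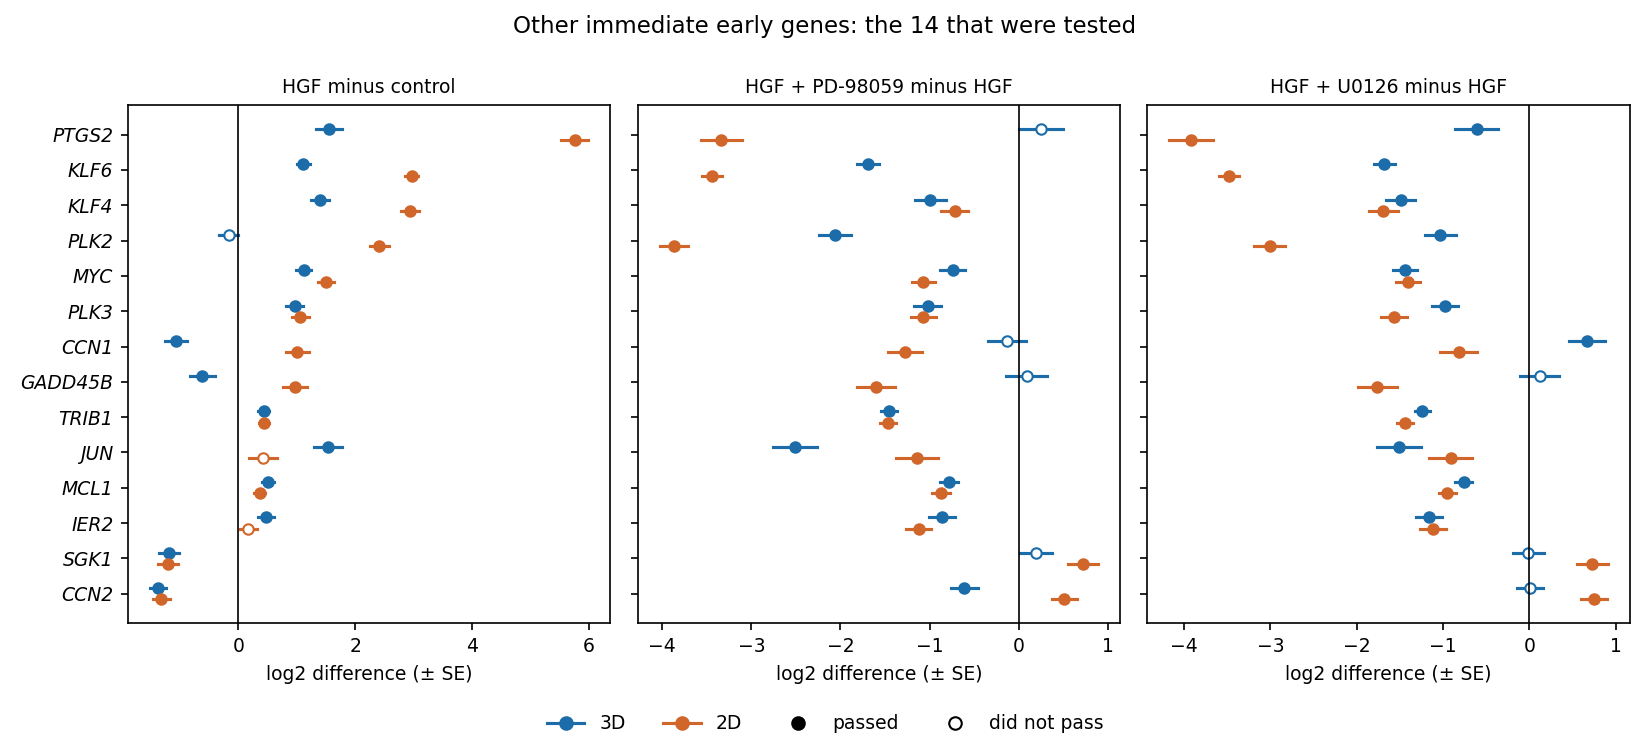
Log2 differences of the 14 tested genes of the list of other immediate early genes for HGF minus control, HGF with PD-98059 minus HGF and HGF with U0126 minus HGF, in 3D (blue) and 2D (orange), ordered by the 2D difference with HGF. Points are limma estimates, lines are standard errors and filled points passed; PTGS2 has the widest HGF difference in 2D (5.76), and CCN2 and SGK1 are lower with HGF in both cultures.

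Genes that act on ERK or follow its activity more slowly gave a second list of 20, of which 17 had a probe set and 9 were tested. With HGF, 8 were higher and 1 lower in 3D and 7 were higher and 0 lower in 2D, with medians of 1.63 and 1.43 beside 0.00 and -0.03, where 29.4% of all tested probe sets were higher and 32.6% lower in 3D, and 26.3% higher and 29.2% lower in 2D. With PD-98059, 7 were lower in 3D and 8 in 2D, where 15.4% and 24.9% of all were. With U0126, 6 were lower in 3D and 9 in 2D, where 23.8% and 24.3% of all were. Higher with either inhibitor were 0 of the 9. Of all tested probe sets 26.6% were higher in 3D and 27.6% in 2D with PD-98059, and 25.4% and 25.8% with U0126. These counts include NAB1 and EPHA2, which averaged 5.20 in 3D and 4.67 in 2D with HGF alone and 2.38 to 2.45 in the other groups. Both were bright enough to test mainly through cells with HGF alone, so their calls against that group are not independent of the filter. DUSP1, a phosphatase of MAP kinases and itself an early gene, was lower by -2.75 ± 0.13 with PD-98059 and -2.30 ± 0.13 with U0126 in 3D. DUSP5, a phosphatase of ERK in the nucleus, was higher with HGF by 2.15 ± 0.20 in 3D and 3.08 ± 0.20 in 2D. CCND1, which encodes cyclin D1, was higher with HGF by 1.93 ± 0.12 in 3D and 2.25 ± 0.12 in 2D. NAB1, a corepressor of EGR1, averaged 5.53 with HGF and 3.90 in control cells in 2D, where EGR1 was lower, a difference of 1.63 ± 0.23. Its other groups averaged 3.20 to 4.55, so the 2D cells with HGF were the only group with a mean over log2 5. In 3D both NAB1 means, 4.55 with HGF and 3.65 in control cells, were under log2 5 and the arrays overlapped. NAB2, the other corepressor, differed by 0.43 ± 0.21 in 2D and did not pass (limma adjusted p = 0.0821). In 3D it was lower by -0.62 ± 0.21 (limma adjusted p = 0.0121), with arrays that overlapped.

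The genes most like each member were taken by the Pearson correlation of the 8 group means, among 6837 or 6838 probe sets of other genes whose group means spanned at least log2 1. For FOS they were NCOR1 (0.982), UGP2 (0.941), PGM2 (0.932), ZNF462 (0.931) and CD9 (0.929), and the most opposed were HPF1 (-0.963), COMMD2 (-0.94) and SLC17A5 (-0.929). For EGR1 they were MINDY2 (0.946), SECISBP2L (0.925), ZFP91 (0.919), CLDN1 (0.909) and TMC5 (0.9), and the most opposed were TCFL5 (-0.905), KIF20B (-0.903) and NRG1 (-0.903). For IER3 they were CORO1C (0.991), SERPINE2 (0.985), CBX5 (0.981), FABP3 (0.98) and PRKD3 (0.976), and the most opposed were DNAL4 (-0.99), CCDC173 (-0.988) and TSNAXIP1 (-0.987). These ranks rest on 8 points from 1 set of arrays. By rank correlation 2 of the 5 genes named for FOS were again among the first 5, 1 for EGR1 and 0 for IER3, and over the 29 arrays 3, 1 and 1 were.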

How the data were processed

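Total RNA of 29 MDCK samples was hybridised to Affymetrix canine arrays. The authors deposited log2 levels per probe set in 1 table, and the submitters' processing notes name GCRMA, MAS5, Partek 6.6 and version 1.1 of Affymetrix Expression Console, with no role or order given. Low log2 levels lie near the floor of the scale, so differences of dim probe sets may be understated. The number of arrays, 3 or 4 a group, limits the precision.

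The deposited log2 values were used unchanged. Of 43035 probe sets, 111 controls were set aside, and 16571 of the other 42924 reached log2 5 on at least 3 arrays and were tested. Symbols come from the platform annotation, and 27680 of the 29254 probe sets with a single symbol had a gene identifier found in RefSeq. No sequence or position is given, since no genome was used here.

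The 8 group means were fitted over all 29 arrays with limma 3.58.1 in R 4.3.3 (eBayes with a variance trend), and 19 comparisons were tested, two-sided, with Benjamini-Hochberg adjustment within each. The fit was checked on simulated data. Intervals are 95% and unadjusted. Named genes are all probe sets of the members and, from each list, up to 4 genes a direction by size of change that passed without overlap of arrays; DUSP1, JUN, KLF6, CCN1, CCN2, SGK1, NAB1 and NAB2 are also given where they were not among these, having been chosen after their values were seen. The members and lists were chosen with earlier results of these data known. Likeness names the 5 most and 3 least alike. Alternatives were no filter, a stricter one, other scalings, array weights, a replicate block, the RNA-quality covariate, compared groups alone, a 2-fold minimum, averaged probe sets and leaving out arrays.

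Replicate numbers are those of the sample titles, which differ from the sample descriptions in the 3D control and 2D U0126 groups, and they were checked by correlating the deviations from group means of same-numbered arrays. In 1 of 16 comparisons, 3D against 2D with U0126, every pair was over 0.1, and the block changed no call of a member there. By the descriptions those groups share only 2 numbers, so that pairing rests on the titles. In the other 15 comparisons the numbers did not pair the arrays.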

Additional observations from a re-analysis of the deposited data

Results flagged for a closer look

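In 12 cases the effect of HGF or of an inhibitor on a probe set of the 3 genes differed between 3D and 2D by a test of the difference itself in the limma fit. These were 4 of the 5 tested probe sets for each of the 3 effects. Of all tested probe sets 48.3% passed for HGF, 34.2% for PD-98059 and 36.5% for U0126. For the HGF effect, 3D minus 2D, the values were -0.39 and -1.46 at the main and other FOS probe sets, 1.37 for EGR1 and -1.20 for IER3. For the PD-98059 effect they were 0.96 and 1.92 for FOS, 1.21 for EGR1 and 1.31 for IER3. For the U0126 effect they were 0.47 and 1.20 for FOS, 1.25 for EGR1 and 0.87 for IER3. For FOS and IER3 the positive inhibitor values mean a smaller fall in 3D. For FOS that fall began from a lower level with HGF alone in 3D, by -0.86 at the main and -2.11 at the other probe set. For EGR1 all inhibitor groups were under log2 5, at 4.34 to 4.41, so its inhibitor values repeat the difference of -1.27 between 3D and 2D cells with HGF alone. The 3 effects share the arrays with HGF alone, and in 2D the mean RNA-quality index was 1.31 with HGF and U0126, 1.36 with HGF and PD-98059, 0.838 with HGF and 1.44 in control cells. With that index as a covariate the 9 values of the main probe sets kept their sign and passed, those for EGR1 being 0.95 for HGF, 1.88 for PD-98059 and 1.92 for U0126. The U0126 value of the other FOS probe set was then 0.44 and did not pass (limma adjusted p = 0.318).

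In 1 of 30 groups of 4 arrays a single array stood far from the rest, where chance gives about 1 in 20. It was replicate 2 of the 2D control cells at the IER3 probe set CfaAffx.1632.1.S1_s_at, which read 5.03 beside 5.60 to 5.66 for the other 3.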

How the results depend on the processing

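For the main probe sets 1038 of 1074 values under the alternatives kept their direction and their side of the threshold, 30 lost a call, 6 gained one and 0 turned direction. For the other probe sets it was 614 of 678, with 51 calls lost and 13 gained. The cause of a lost or gained call was not tested. IER3 with PD-98059 against control in 2D stayed at 0.51 without the filter (limma adjusted p = 0.0678) and with the compared groups alone (0.0557), was 0.33 with averaged probe sets, and was 0.37 to 0.62 when 1 array was left out. IER3 with U0126 against control in 3D was 0.47 without the filter, 0.27 with averaged probe sets, and 0.35 to 0.61 when 1 array was left out. With the replicate number as a block, that IER3 value was 0.47 and did not pass (limma adjusted p = 0.0561). The only other call of the 3 genes that the block changed was that of the other IER3 probe set for HGF in 3D (0.47, limma adjusted p = 0.0552). Outside the 3D against 2D comparison with U0126, the numbers were not shown to pair the arrays. The PD-98059 and U0126 effects on EGR1 in 3D minus 2D stayed at 1.21 and 1.25 without the filter and with the compared groups alone, and were 1.03 and 1.05 after quantile normalization and 0.58 and 0.61 with averaged probe sets, none of which passed. FOS with U0126 against PD-98059 in 2D did not pass at -0.57 with the compared groups alone or at -0.54 with averaged probe sets. IER3 with PD-98059 against HGF in 3D passed at -0.48 after quantile normalization and at -0.54 after median centring, and ran from -0.52 to -0.26 when 1 array was left out. EGR1 with HGF in 3D passed at -0.57 with array weights and at -0.72 without replicates 1 and 4 of the 3D cells with HGF, and ran from -0.80 to -0.15 when 1 array was left out. Without those 2 arrays the FOS differences of effects, -0.27 for HGF and 0.35 for U0126, did not pass. When 1 array was left out they ran from -0.45 to -0.32 and from 0.37 to 0.53, and IER3 with U0126 against HGF in 3D from -0.68 to -0.42. Median centring also moved the median of all tested probe sets by 0.12 for 3D against 2D with HGF. Counts over all probe sets were 269 to 10703 over the 19 comparisons, and 59 to 4215 with a 2-fold minimum. Other counts that moved by more than 1.5 times were those of U0126 against PD-98059 in 3D, 1957 in the main setting, 1287 with the compared groups alone, 5447 with array weights and as low as 910 when 1 array was left out. In 2D that count was 269, against 69 with the compared groups alone, 500 after quantile normalization, 519 with array weights, 471 with the RNA-quality covariate and as low as 165 when 1 array was left out. PD-98059 against HGF in 3D had 6965 and 4365 with the compared groups alone, U0126 against control in 2D 2821 and 4426 with array weights, and 3D against 2D with HGF 10703 and 23761 without the filter.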

Other observations

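Of a list of 25 genes of the chain from the HGF receptor to the transcription factors that act on immediate early genes, 21 had a probe set that names 1 gene and 15 were tested. With HGF, 7 were higher and 3 lower in 3D, and 10 were higher and 1 lower in 2D, with median log2 differences of 0.28 and 0.56 beside 0.00 and -0.03 over all tested probe sets. Of all tested probe sets 29.4% were higher and 32.6% lower in 3D, and 26.3% higher and 29.2% lower in 2D, so in 3D the list changed at about the share of the array. ELK3, a ternary complex factor that binds beside SRF, was higher with HGF by 2.04 ± 0.12 in 3D and 2.51 ± 0.12 in 2D (limma adjusted p = 1.81e-13 and 3.73e-15). It was lower than with HGF alone by -2.05 ± 0.13 with PD-98059 and -2.55 ± 0.13 with U0126 in 3D, and by -2.76 ± 0.12 and -2.51 ± 0.13 in 2D.

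HRAS was higher with HGF by 1.88 ± 0.21 in 3D and 2.22 ± 0.21 in 2D, and GAB1, an adaptor of MET, was lower by -2.09 ± 0.20 in 3D and -1.42 ± 0.20 in 2D. MET itself was higher with HGF in 2D by 1.12 ± 0.16, and lower than with HGF alone by -1.55 ± 0.16 with PD-98059 and -1.52 ± 0.18 with U0126. With PD-98059, 4 of the 15 were lower and 3 higher in 3D, and 10 were lower and 0 higher in 2D, where 15.4% of all were lower and 26.6% higher in 3D, and 24.9% lower and 27.6% higher in 2D. With U0126, 4 were lower and 2 higher in 3D, and 10 were lower and 1 higher in 2D, where 23.8% of all were lower and 25.4% higher in 3D, and 24.3% lower and 25.8% higher in 2D.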
